A study of Mus musculus with 14 samples.

Results

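The Slco genes encode the organic anion transporting polypeptides, membrane carriers that take up bile acids, steroid conjugates, thyroid hormones, prostaglandins and many drugs. The 8 genes described here, Slco1a1, Slco1a4, Slco1a6, Slco2a1, Slco2b1, Slco3a1, Slco4a1 and Slco4c1, were chosen by symbol from the 15 genes with an Slco symbol among 24411 genes counted, with their levels by day and by library number format already known. Bulk RNA sequencing was performed on whole kidneys of male C57/B6 mice, 8 weeks of age, before injury (day 0, 4 libraries) and 1 and 3 days after ischemia/reperfusion injury of the kidney (IRI, 5 libraries at each day). No allele or treatment other than IRI is given, so the 3 groups share strain, sex, age and tissue, and whether the day 0 mice had sham surgery is not stated. The labels do not say whether replicates came from separate mice, so the errors and p-values below measure the spread between these libraries only.

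In the kidney most carriers of this family sit in the membranes of tubule cells, where they move organic anions between blood, cell and urine together with the Slc22 carriers and the ABC efflux pumps. The proximal tubule does most of this work and is the segment that IRI injures most. Slco2a1 differs from the others in that it is best known as the prostaglandin transporter, which takes prostaglandins back up from the outside of cells.

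Each library held between 12485579 and 20476979 reads on genes, and levels are given as CPM, a gene's reads scaled to a common library total, after TMM, a correction for differences in RNA composition. The library names carry a number of 1 or of 3 digits. All 4 day 0 libraries have 1 digit, day 1 has 3 libraries with 1 digit (replicates 3, 4 and 5) and 2 with 3 digits (replicates 1 and 2), and day 3 has 2 with 1 digit (replicates 4 and 5) and 3 with 3 digits (replicates 1, 2 and 3). What the format stands for is not stated, and at day 0 it cannot be told apart from the day. The tissue label was checked by markers. The summed CPM of 12 proximal tubule genes was 22800 to 24600 at day 0, and that of 5 liver genes (Alb, Apoa1, Slc10a1, Cyp3a11 and Ttr), the other organ known for these carriers, was 20.5 to 236 over all libraries. Day 3 replicate 2 stood apart from its group in the tubular injury list, with a sum of 6380 CPM whereas the rest of day 3 lay between 20500 and 44000. Of the other 7 genes with an Slco symbol, Slco6b1, Slco6c1 and Slco6d1 had 0 reads in every library, and Slco1a5, Slco1b2, Slco1c1 and Slco5a1 had 4 to 57 reads in all 14 libraries together, so none could be tested.

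Slco1a4, Slco1a1 and Slco1a6 lie near each other on the minus strand of chromosome 6 (GENCODE vM21 on GRCm38, the build named mm10 in the submitters' notes). Slco1a4 spans chr6:141805440-141856199, Slco1a1 spans chr6:141907282-141946962, and Slco1a6 spans chr6:142085761-142208521. Slco1a5 follows at chr6:142234227-142322981. The other members are scattered, with Slco4c1 at chr1:96816270-96872171 (minus strand), Slco4a1 at chr2:180456245-180474867 (plus strand), Slco3a1 at chr7:74275419-74554780 (minus strand), Slco2b1 at chr7:99657804-99711340 (minus strand) and Slco2a1 at chr9:102988712-103096002 (plus strand). The coding sequences of the 3 chromosome 6 members were 83.9% to 86.7% identical to each other, whereas all other pairs of members were 55.3% to 63.8% identical. Of the 50-base stretches in the exons, 1.64% of those of Slco1a1, 1.61% of those of Slco1a4 and 6.22% of those of Slco1a6 also occur in another gene. Whether reads of one gene were counted for another was not tested, and Slco1a4 had only 0 to 26 reads per library. Antisense genes overlap Slco1a6, Slco2a1, Slco2b1, Slco3a1 and Slco4c1, and the strand column used keeps their reads apart. The neighbouring gene that shares most with Slco1a6, Gm6614, had 4 to 88 reads per library against 745 to 5667 for Slco1a6. Whether it is an Slco gene under another symbol was not examined.

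The 250 bases before the RefSeq start site are shown for the 2 abundant neighbours, Slco1a1 and Slco1a6, and for Slco4c1, the member that was lowest after IRI relative to day 0. They come from RefSeq (GRCm38.p6), which had an entry for 7 of the 8 members (not Slco3a1), and read 5′ to 3′ on the gene's strand toward the start. The RefSeq start is that of the GENCODE gene for Slco1a1 and Slco4c1, and lies 22372 bases inside the GENCODE gene for Slco1a6. Capitals mark matches, on either strand, to 7 short motifs. These were the TATA box (TATAAA, reverse TTTATA), the CCAAT box (CCAAT, reverse ATTGG), the GC box (GGGCGG, reverse CCGCCC), an HNF4 motif (CAAAGTNCA), an HNF1 half-site (GTTAAT), an AP-1 motif (TGANTCA) and the core of the hypoxia element (ACGTG).
Slco1a1 at chr6:141946963-141947212, minus strand: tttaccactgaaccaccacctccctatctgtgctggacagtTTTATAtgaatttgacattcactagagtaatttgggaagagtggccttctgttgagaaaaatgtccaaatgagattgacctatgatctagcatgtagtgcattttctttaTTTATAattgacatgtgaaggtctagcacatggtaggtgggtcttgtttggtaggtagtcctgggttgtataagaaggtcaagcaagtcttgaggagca
Slco1a6 at chr6:142186150-142186399, minus strand: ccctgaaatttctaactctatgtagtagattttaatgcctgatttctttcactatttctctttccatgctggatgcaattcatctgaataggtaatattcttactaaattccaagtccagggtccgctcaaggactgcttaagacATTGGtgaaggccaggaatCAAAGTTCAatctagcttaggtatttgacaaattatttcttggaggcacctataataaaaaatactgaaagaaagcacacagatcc
Slco4c1 at chr1:96872172-96872421, minus strand: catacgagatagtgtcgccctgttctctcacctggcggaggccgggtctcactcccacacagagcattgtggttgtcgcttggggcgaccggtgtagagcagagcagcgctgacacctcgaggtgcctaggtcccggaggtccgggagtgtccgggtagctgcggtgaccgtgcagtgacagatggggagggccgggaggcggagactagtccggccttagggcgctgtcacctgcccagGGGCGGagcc

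The 3 promoter windows differ in make-up as well as in motifs. Slco1a1 (40.4% G and C) holds TTTATA at 99 to 94 and at 209 to 204 bases before the start, a motif found in 12.4% of all 32851 promoter windows of this length. Slco1a6 (36.4% G and C) holds CAAAGTTCA at 86 to 78 bases before the start, which only 1.19% of all windows match, and ATTGG at 105 to 101, found in 33.8%. Slco4c1 (66.4% G and C) holds GGGCGG at 10 to 5 bases before the start, found in 32.7%. Its window also lies within the span of the antisense gene Panct2. Over the windows of all 7 members, the GC box also occurs in Slco4a1 (4 copies) and Slco2a1, the TATA box in Slco2a1 and the CCAAT box in Slco1a4 and in 1 of the windows of Slco2b1. The HNF1, AP-1 and hypoxia motifs match no member, against 6.43%, 6.75% and 16.6% of all windows. No matches overlap each other. A match is a description of letters and not a measured site.

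At day 0, 3 members made up nearly all Slco mRNA. Per kilobase of exon, the day 0 level was 89.1 ± 7.55 CPM for Slco1a1, 77.7 CPM for Slco1a6 and 32.4 CPM for Slco3a1. The next members were Slco4a1 at 5.5 CPM per kilobase, Slco4c1 at 3.73, Slco2b1 at 3.3 and Slco2a1 at 1.96, and Slco1a4 was lowest at 0.189. The Slco4a1 value rests on day 0 replicate 4, and without it the level was 2.85, below Slco4c1 (4.01) and Slco2b1 (3.6). Divided by the longest transcript instead, Slco4c1 (3.73) and Slco2a1 (3.72) were level, and Slco2b1 (4.48) stood above both. In CPM, Slco1a1, Slco1a6 and Slco3a1 together held 89.2% to 93.9% of the summed level of all 15 genes with an Slco symbol at day 0, 76% to 89.7% at day 1 and 49.9% to 84.3% at day 3. The summed level was 1072 to 1212 CPM at day 0, 616.9 to 979.3 at day 1 and 365.1 to 605.9 at day 3, with no overlap between any of the days. Slco2a1 took the opposite course, from 1.87% to 2.95% of the sum at day 0 to 4.02% to 16.1% at day 1 and 9.42% to 27.1% at day 3.

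**Figure D1:**
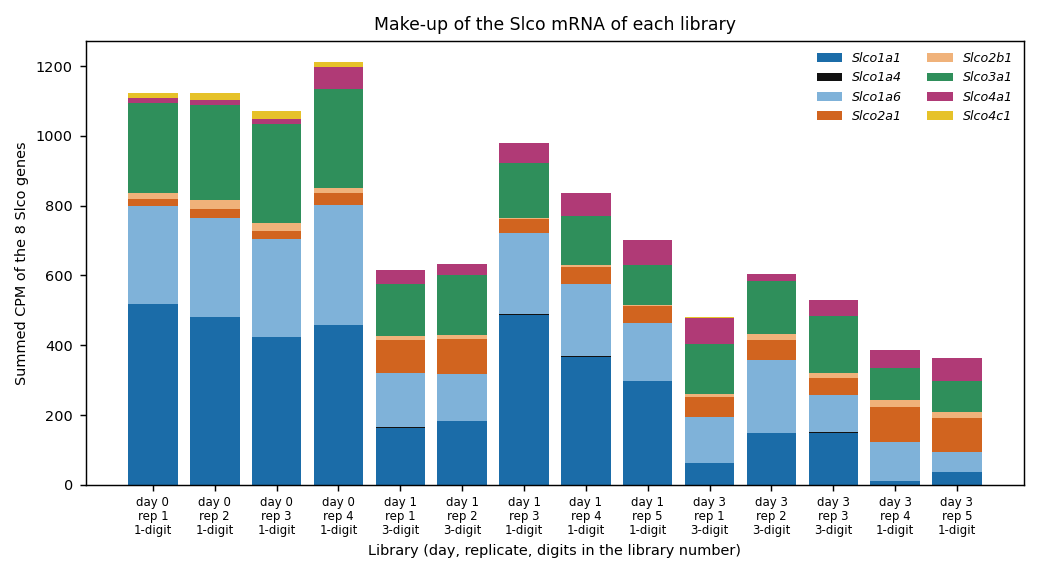
Summed CPM of the 8 Slco genes in each of the 14 libraries, with each colour the part of 1 gene. Over all 15 genes with an Slco symbol, the sum falls from 1072 to 1212 CPM at day 0 to 365.1 to 605.9 at day 3. The blue part (Slco1a1) shrinks and the orange part (Slco2a1) widens.

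After IRI, 6 of the 8 members had a lower mean at both days and 2 (Slco2a1 and Slco4a1) a higher one. The comparison of each day with day 0 asks how the injured kidney differs from the kidney before injury. At day 1, 4 members were lower and 1 was higher at an adjusted p under 0.05 (edgeR's quasi-likelihood test over 14300 genes), where 42.1% of all genes tested were called in either direction, 18.7% lower and 23.3% higher. At day 3, 5 members were lower and 1 was higher, where 33.3% of all genes were called, 13.8% lower and 19.5% higher. The median log2 fold change of the members was -0.758 at day 1 and -1.18 at day 3, beside 0.00727 and 0.0542 over all genes. The members' values at each day did not overlap with day 0 for 6 members at day 1 and for 6 at day 3, beside 42% and 33.4% of all genes. All 8 members passed the filter on low counts. The members were chosen with these values in view, and both days share the same 4 day 0 libraries, so the counts and folds are a description and nothing is read from them as a test.

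**Figure D2:**
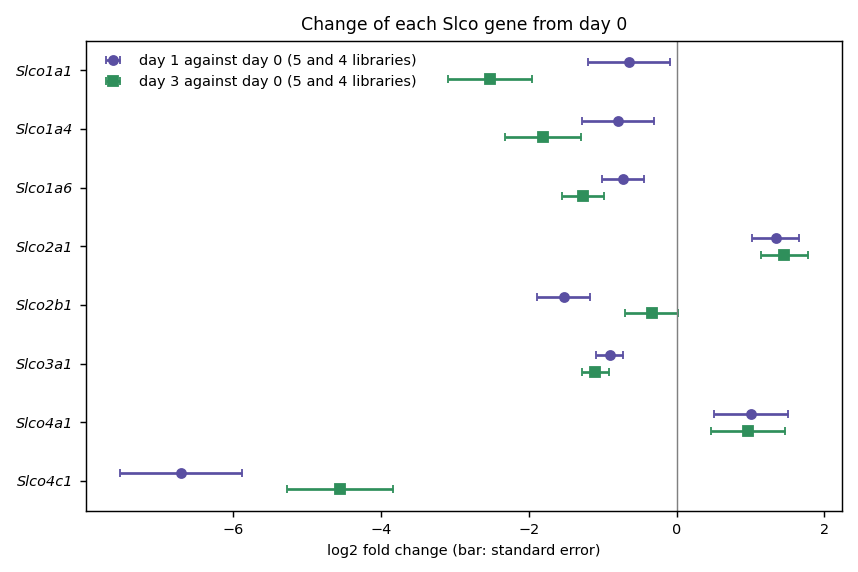
Log2 fold change of each Slco gene at day 1 (circles) and day 3 (squares) against day 0, from the edgeR fit over 14 libraries, with bars of 1 standard error. Slco4c1 lies farthest to the left, at -6.71 and -4.56, and Slco2a1 and Slco4a1 lie to the right of 0 at both days.

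Slco1a1 carries steroid conjugates and bile acids and is known in mice as a gene expressed more in male than in female kidney. It was the most abundant member at day 0, with 518, 481, 424 and 457 CPM in replicates 1 to 4. At day 1 it was 164 and 182 CPM in the 3-digit libraries and 488, 368 and 297 CPM in the 1-digit libraries. By day 3 it was 61.6, 149 and 149.5 CPM in the 3-digit libraries and 9.89 and 37.5 CPM in the 1-digit libraries. Day 1 thus overlapped with day 0 through replicate 3 alone, and all 5 day 3 libraries lay below every other library. The mean was 469.9 ± 39.8 CPM (SD, n = 4) at day 0, 299.7 ± 134 (n = 5) at day 1 and 81.4 ± 64.4 (n = 5) at day 3. The log2 fold change from day 0 was -0.65 (SE 0.555) at day 1 and -2.53 (SE 0.573, 5.77-fold lower) at day 3. The coefficient of variation was 8.48% at day 0, 44.8% at day 1 and 79.1% at day 3, where days 1 and 3 pool both number formats. Within the 1-digit format it was 25.1% at day 1 and 82.4% at day 3, and within the 3-digit format 7.36% and 42.1%.

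Slco1a6, the kidney carrier of the same gene cluster, was lower at both days with no overlap. Its day 0 level was 279.6, 282 and 279.7 CPM in replicates 1 to 3 and 343 CPM in replicate 4. At day 1 it was 155 and 133 CPM in the 3-digit libraries and 233, 207 and 167 CPM in the 1-digit ones. Day 3 gave 132, 209.5 and 107 CPM in the 3-digit libraries and 112 and 54.7 CPM in the 1-digit ones. Every library after IRI thus lay below every day 0 library, while days 1 and 3 overlapped. This was a log2 fold change of -0.73 (SE 0.28) at day 1 and of -1.27 (SE 0.281) at day 3. The day 1 value was at the edge of the threshold. Its call was lost in 17 of 26 alternatives, among them the unstranded column, RLE factors, no filter and a fit of the 1-digit libraries alone (-0.51 to -0.75). It was kept in 3 of the 14 fits that leave out 1 library, those without day 1 replicate 3, day 3 replicate 2 or day 3 replicate 5. The 2 neighbours did not keep their proportion. The CPM of Slco1a1 was 1.33 to 1.85 times that of Slco1a6 in the day 0 libraries and 1.06 to 2.09 times at day 1. At day 3 the ratio ranged from 0.088 in replicate 4 to 1.40 in replicate 3, with 3 further libraries between 0.468 and 0.71.

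Slco1a4, a carrier best known from liver and the blood-brain barrier, was close to the limit of detection. It had 17 to 26 reads per library at day 0, 8 to 18 at day 1 and 0 to 12 at day 3, that is 1.21 ± 0.193 CPM (SD, n = 4), 0.696 ± 0.196 (n = 5) and 0.335 ± 0.220 (n = 5). The log2 fold change was -0.79 (SE 0.488) at day 1 and -1.81 (SE 0.511) at day 3. All 10 libraries after IRI had fewer CPM than the lowest day 0 library. Summed over the libraries of a day, the day 0 level was 1.75 times the day 1 level, with a counting interval (95%) of 1.24 to 2.49.

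Slco3a1, a widely expressed carrier of prostaglandins and thyroid hormone, varied least between day 0 libraries. It was 258, 273, 286 and 282 CPM at day 0, a coefficient of variation of 4.64%. At day 1 it was 150 and 171 CPM in the 3-digit libraries and 158, 142 and 113 CPM in the 1-digit ones. On day 3 the level was 143, 153 and 162 CPM in the 3-digit libraries and 92.1 and 90.0 CPM in the 1-digit ones. Every library after IRI lay below every day 0 library, and days 1 and 3 overlapped. Relative to day 0, the log2 fold change was -0.90 (SE 0.184) at day 1 and -1.10 (SE 0.184) at day 3, the smallest standard errors among the 8.

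Slco4c1, which takes up digoxin and thyroid hormone at the blood side of the proximal tubule cell, had few reads left after IRI. It had 289, 348, 348 and 234 reads at day 0, which is 16.6, 20.5, 22.0 and 14.2 CPM. At day 1 it had 1 and 11 reads in the 3-digit libraries and 2, 0 and 1 reads in the 1-digit ones. At day 3 it had 7, 46 and 5 reads in the 3-digit libraries and 6 and 3 reads in the 1-digit ones. No library after IRI reached the lowest day 0 library, and the highest was day 3 replicate 2, at 2.59 CPM. Over the summed reads, the day 0 level was 104 times the day 1 level (95% interval 62.6 to 186) and 23.5 times the day 3 level (18.3 to 30.5), intervals that cover counting error only. The fitted log2 fold change was -6.71 (SE 0.827) at day 1 and -4.56 (SE 0.712) at day 3, and it was -8.0 at day 1 without replicate 2 of that day and -5.86 at day 3 without replicate 2 of that day.

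Slco2a1, the prostaglandin transporter, was higher at both days in every library. At day 0 it was 21.1, 27, 22.2 and 35.7 CPM. At day 1 it was 95.3 and 102 CPM in the 3-digit libraries and 39.3, 50.3 and 47.9 CPM in the 1-digit ones. The day 3 level was 56.9, 57.1 and 51.2 CPM in the 3-digit libraries and 100.2 and 99.1 CPM in the 1-digit ones. The lowest library after IRI, at 39.3 CPM, was above the highest day 0 library, and within each day the formats did not overlap. Its log2 fold change was 1.34 (SE 0.32, 2.53-fold) at day 1 and 1.46 (SE 0.321, 2.75-fold) at day 3.

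Slco2b1, which takes up sulfated steroids and many drugs, was lowest at day 1. It was 17.3, 24.2, 22.8 and 14.3 CPM at day 0, and at day 1 it was 11.8 and 10.6 CPM in the 3-digit and 4.09, 3.60 and 3.70 CPM in the 1-digit libraries. By day 3 it was 10.1, 16.1 and 13.9 CPM in the 3-digit and 20.5 and 17.3 CPM in the 1-digit libraries. All day 1 libraries lay below day 0, whereas day 3 overlapped with both day 0 and day 1. The log2 fold change from day 0 was -1.53 (SE 0.363) at day 1 and -0.34 (SE 0.358) at day 3. Within each library, the ratio of Slco2a1 to Slco2b1 in CPM was 0.975 to 2.50 at day 0, 8.07 to 14 at day 1 and 3.54 to 5.74 at day 3. This ratio, chosen after its values were seen, separated the 3 days in the 14 libraries.

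Slco4a1, a thyroid hormone carrier, had a mean that rested on 1 library at day 0. It was 12.5, 14.6 and 13.9 CPM in replicates 1 to 3 of day 0 and 64.6 CPM in replicate 4. At day 1 it was 39.7 and 32.5 CPM in the 3-digit and 56.4, 65.5 and 71.9 CPM in the 1-digit libraries. Day 3 values were 76.2, 18.6 and 47.0 CPM in the 3-digit and 51.3 and 65.3 CPM in the 1-digit libraries. All 10 libraries after IRI were above replicates 1 to 3 of day 0, and 4 of the 10 were above replicate 4. The log2 fold change was 1.01 (SE 0.499) at day 1 and 0.97 (SE 0.498) at day 3, neither past the threshold. A fit of the 1-digit libraries alone gave 1.32 at day 1, past it, whereas in the fit of all libraries that separates days and formats these libraries gave 1.29 (SE 0.537), not past it. Without day 0 replicate 4 it was 1.96 and 1.91, both then past it. In day 0 replicate 4 the summed CPM of 5 urothelium genes was 45.4, against 1.82 to 8.63 in the other 3. The sum of 9 collecting duct genes was 1150, against 852 to 981. This library was also the highest of day 0 for the tubular injury (1540), endothelial (598), smooth muscle (85.4) and liver (171) sums. It was the lowest for the thick limb and distal (7150), podocyte (269) and macrophage (129) sums. The proximal tubule (24100) and fibroblast and pericyte (143) sums were neither. The part of these cells in the Slco4a1 value was not tested.

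**Figure D3:**
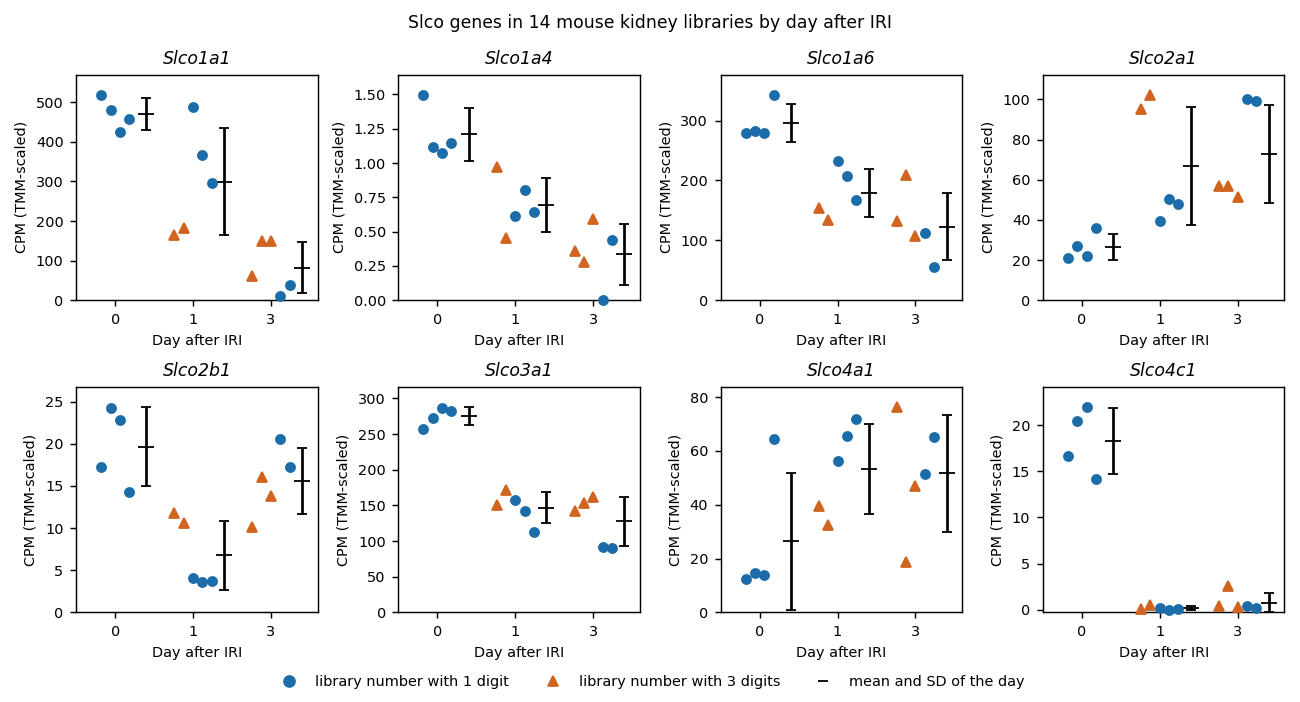
CPM of each Slco gene in each library at day 0, 1 and 3 after IRI, with libraries of 1-digit number as blue circles and of 3-digit number as orange triangles, and the mean and SD of the day in black. Each panel has its own linear axis. Slco4c1 is at 0 to 2.59 CPM in all 10 libraries after IRI, and Slco4a1 has 1 day 0 library, at 64.6 CPM, among the values of the later days.

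Between day 1 and day 3, 1 member was higher and 1 was lower at an adjusted p under 0.05, where 15.9% of all genes were called, 8.52% higher and 7.39% lower. Slco2b1 was higher by a log2 fold change of 1.19 (SE 0.347), although its days overlapped, and Slco1a1 was lower, with a log2 fold change of -1.88 (SE 0.544) with no overlap, beside 7.61% of all genes without overlap. Slco4c1 differed by 2.15 (SE 0.817), not past the threshold. It passed with DESeq2 (2.22) and without day 1 replicate 2 (3.45), and was 0.84 without day 3 replicate 2. Slco2a1, Slco3a1 and Slco4a1 had log2 fold changes between -0.20 and 0.12. This comparison changed with the number format. In separate fits over 1-digit libraries only, the day 3 against day 1 log2 fold change was -4.04 for Slco1a1, -1.29 for Slco1a6, 1.11 for Slco2a1 and 2.30 for Slco2b1, and over 3-digit libraries only it was -0.53, 0.05, -0.85 and 0.25. Both calls were thus lost in the 3-digit libraries, and also with only the 2 days in the fit. The Slco1a1 call was further lost with total counts (-1.65) and without any 1 of day 1 replicates 3, 4 and 5 and day 3 replicate 1 (-1.63 to -1.88). The Slco2b1 call was lost without any 1 of day 1 replicates 3, 4 and 5 and day 3 replicates 3 and 4 (1.03 to 1.23). Other members gained a call, Slco1a6, Slco2a1 and Slco3a1 in the 1-digit fit and Slco2a1, with the other sign, in the 3-digit fit. Slco1a6 also gained one without day 3 replicate 2 (-0.82).

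Within a day, some members also differed by number format. At day 1 the 3-digit minus 1-digit log2 difference was 1.56 (SE 0.25) for Slco2b1 and 1.11 (SE 0.189) for Slco2a1, the 2 members past the threshold, where 35% of all genes were called, 18.6% higher and 16.4% lower. At day 3 it was 2.34 (SE 0.485) for Slco1a1, 0.74 (SE 0.148) for Slco3a1 and -0.86 (SE 0.189) for Slco2a1, the 3 members past it, where 18.5% were called, 10.3% higher and 8.22% lower. Without replicate 5, which leaves replicate 4 as the only 1-digit library, these were 3.58, 0.71 and -0.88, and that of Slco1a6 was 0.39. Without replicate 4, which leaves only replicate 5, that of Slco1a6 was 1.45. With total counts, Slco1a6 at day 3 and Slco3a1 at day 1 also passed the threshold. The formats did not overlap for 5 members at day 1 and for 4 at day 3, beside 60.7% and 41.4% of all genes. The sign turned between the days for 4 members (Slco1a1, Slco1a6, Slco2a1 and Slco2b1). The difference of Slco1a1 was -1.15 (SE 0.452) at day 1 against 2.34 at day 3, and that of Slco1a6 was -0.49 against 0.84. In 3-digit against 1-digit libraries, the summed CPM of the proximal tubule list was 7320 to 10000 against 13000 to 19900 at day 1 and 16600 to 21700 against 5730 to 14200 at day 3, with a turn in the same direction as Slco1a1 and Slco1a6. The part of these cells in the Slco differences was not tested.

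**Figure D4:**
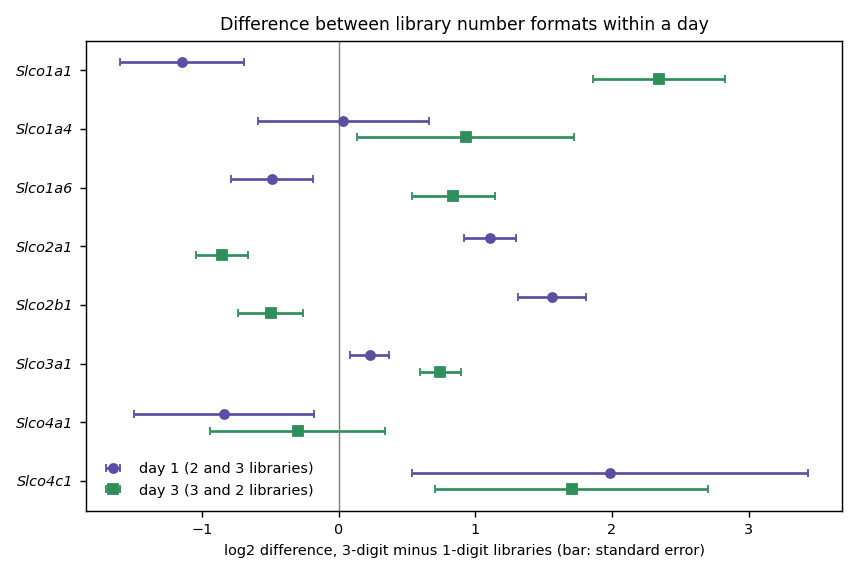
Log2 difference between libraries of 3-digit and of 1-digit number, for each Slco gene within day 1 (circles) and within day 3 (squares), with bars of 1 standard error. Slco1a1 lies at -1.15 at day 1 and 2.34 at day 3, and Slco2a1 at 1.11 and -0.86.

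In the fit of all libraries that separates days and formats, the 1-digit libraries, the format of day 0, had a log2 fold change from day 0 of -0.29 (SE 0.366) for Slco1a1 at day 1 and of -4.31 (SE 0.528, 19.9-fold lower) at day 3. The 3-digit libraries had -1.44 (SE 0.442), past the threshold, and -1.97 (SE 0.388). For Slco2b1 the 1-digit libraries gave -2.37 (SE 0.226) at day 1 and -0.06 (SE 0.228) at day 3. For Slco2a1 they gave 0.79 (SE 0.162) and 1.91 (SE 0.176), and for Slco3a1 -1.0 (SE 0.124) and -1.59 (SE 0.148). At day 1, Slco4c1 averaged 0.0722 CPM for the 1-digit libraries against 0.277 CPM for the 3-digit ones. The day 3 averages were 0.312 and 1.06 CPM in the same order, and the day 0 average was 18.3 CPM. This format difference of Slco4c1 rested on replicate 2 of each day. The 3-digit minus 1-digit log2 difference was 1.98 at day 1, and -0.29 without replicate 2. At day 3 it was 1.70, and -0.06 without replicate 2.

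Markers of the cell types that could carry these mRNAs also moved. In bulk tissue, fewer cells of a type and less RNA per cell cannot be told apart. Of 12 proximal tubule genes, 11 could be tested, and 5 were lower at day 1 and 4 at day 3. Their median log2 fold change from day 0 was -0.763 in the 1-digit and -1.98 in the 3-digit libraries of day 1. In those of day 3 it was -1.76 and -0.787 in the same order. Their sum was 7320 to 19900 CPM at day 1 and 5730 to 21700 at day 3. Of 10 tubular injury genes 9 were higher at each day, with a sum of 1220 to 1540 CPM at day 0, 8860 to 36700 at day 1 and 6380 to 44000 at day 3. Of 8 thick limb and distal genes 5 were lower at day 1 and 6 at day 3, with sums of 7150 to 9920 CPM, then 3460 to 6020, then 2270 to 3490. Of 10 endothelial genes, which mark cells that also express Slco2a1, 2 were higher and 1 was lower at day 1. At day 3 edgeR called 0 of the 10, with 1 at an unadjusted p under 0.05 and 0 by DESeq2. By number format, their median log2 fold change from day 0 was 0.821 in the 1-digit libraries of day 3, beside 0.0518 over all genes. In the 3-digit ones it was -0.264, beside 0.0201. The endothelial sum was 504 to 598 CPM, then 621 to 753, then 295 to 1150. In day 3 libraries of 1-digit number, where Slco2a1 was 99.1 and 100.2 CPM, the endothelial sum was 739 to 1150 CPM, against 295 to 519 in the 3-digit ones. At day 1, where the 3-digit libraries were the ones high in Slco2a1, that sum was 625 to 698 CPM in them and 621 to 753 in the 1-digit ones. Of 5 smooth muscle genes, 2 were higher at day 1 and 3 at day 3. Their sum was 54.8 to 85.4 CPM at day 0, and it was high in the same libraries as Slco2a1 at both later days. It was 354 to 415 CPM in the 3-digit against 106 to 172 in the 1-digit libraries of day 1, and 169 to 275 against 628 to 874 at day 3. The tubular injury sum did the same, at 31800 to 36700 against 8860 to 17000 CPM and at 6380 to 32400 against 36300 to 44000. Of 9 fibroblast and pericyte genes, 2 were higher and 1 was lower at day 1 and 6 were higher at day 3, with sums of 141 to 148 CPM, then 151 to 466, then 548 to 1190. Of 10 macrophage genes, 2 were higher and 1 was lower at day 1, and 6 were higher and 1 was lower at day 3, with sums of 129 to 210 CPM, then 81.4 to 140, then 130 to 461. The day 3 sum was 130 CPM in both 1-digit libraries and 268 to 461 in the 3-digit ones. All 10 endothelial genes had reads in every library, and 1 macrophage gene was at 0 in a day 0 library. The part of these cell types in the Slco results was not tested.

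Carriers and enzymes that share substrates with the Slco carriers, transcription regulators and male-biased tubule genes were taken from 6 lists of 73 testable genes, drawn up from general knowledge with earlier results of these data known. By the same edgeR test with Benjamini-Hochberg adjustment, 13 were higher and 21 lower at day 1, and 10 were higher and 27 lower at day 3. These are 46.6% and 50.7% of the 73, beside 42.1% and 33.3% of all genes. By direction, 28.8% were lower and 17.8% higher at day 1, beside 18.7% and 23.3% of all genes, and 37% were lower and 13.7% higher at day 3, beside 13.8% and 19.5%. Their median log2 fold change was -0.193 and -0.506, beside 0.00727 and 0.0542 over all genes. The 2 most abundant genes of each list are described (1 for the thyroid hormone list), and other genes that are named were chosen after their values were seen.

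Of the 16 organic anion carriers and efflux pumps, 1 was higher and 5 were lower at day 1, and 2 were higher and 7 lower at day 3. Slc22a6 (OAT1), the main basolateral organic anion exchanger, was 1260 ± 119 CPM (SD, n = 4) at day 0, 1300 ± 277 (n = 5) at day 1 and 1020 ± 142 (n = 5) at day 3, with edgeR adjusted p of 0.834 and 0.18. Slc22a12 (URAT1), the urate carrier of the brush border, was 1630 ± 103, 1090 ± 379 and 693 ± 465 CPM, with an adjusted p of 0.338 at day 1 and 0.0571 at day 3. Every day 3 library lay below day 0, and the mean pools unlike formats. It was 218 CPM in the 1-digit libraries (log2 fold change -2.90, edgeR adjusted p 5.44e-05) and 1010 CPM in the 3-digit ones (-0.69, adjusted p 0.0756). Slc22a7 (OAT2) had the largest fall of the list at day 3, from 234 to 31.4 CPM at day 1 and 1.41 CPM at day 3, log2 fold changes of -2.90 (SE 0.298, adjusted p 1.97e-05) and -7.37 (SE 0.372, adjusted p 9.07e-08). Abcb1a (P-glycoprotein) was the gene that rose at day 1, by 1.75 (SE 0.505, adjusted p 0.0132). The efflux pumps Abcc2 and Abcc4 rose at day 3, by 1.35 (SE 0.252, adjusted p 0.00142) and 0.85 (SE 0.221, adjusted p 0.0101).

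Of the 16 prostaglandin genes, 5 were higher and 4 lower at day 1, and 4 were higher and 4 lower at day 3. Ptges3, a co-chaperone also known as cytosolic prostaglandin E synthase, rose at day 1 by a log2 fold change of 0.55 (SE 0.162, adjusted p 0.0151), with overlap with day 0. By number format this was 0.75 in the 1-digit libraries (edgeR adjusted p 0.000146) and 0.18 in the 3-digit ones (0.29). At day 3 Ptges3 was 126 ± 14.3 CPM against 164 ± 9.46 at day 0 (edgeR adjusted p 0.0796). Ptgr2, a prostaglandin reductase, fell at day 1 with a log2 fold change of -1.22 (SE 0.356, adjusted p 0.0138) and had an adjusted p of 0.0701 at day 3. Beside the uptake carrier Slco2a1, the synthesis genes Ptgs2 (cyclooxygenase-2) and Ptges rose at day 1, by 3.29 (SE 0.604, adjusted p 0.000954) and 1.27 (SE 0.276, adjusted p 0.00276). Hpgd, the enzyme that breaks prostaglandins down inside the cell, fell at both days, with log2 fold changes of -2.07 (SE 0.267, adjusted p 8.24e-05) at day 1 and -1.67 (SE 0.263, adjusted p 0.00049) at day 3. Among the receptors, Ptger4 (2.09 and 1.64) and the prostacyclin receptor Ptgir (1.25 and 1.45) rose at both days while Ptger1 (-2.60 and -2.90) and Ptger3 (-3.04 and -2.92) fell.

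Of the 12 thyroid hormone genes, 3 were higher and 5 lower at day 1, and 1 was higher and 4 lower at day 3. Slc3a2, the shared heavy chain of amino acid carriers that also move thyroid hormone, rose at day 1 by 1.08 (SE 0.214, adjusted p 0.00158). Its light chain Slc7a5 rose at both days, by 2.64 and 2.19, and the light chain Slc7a8 fell at both, with log2 fold changes of -0.95 and -0.86. Dio1, which activates thyroid hormone in the tubule, fell at both days (-1.67 and -2.83), as did the receptor Thrb (-1.96 and -1.47), whereas Dio2, the other activating deiodinase, rose at day 1 from 0.12 to 1.24 CPM (3.29, SE 0.634, adjusted p 0.0013).

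Of the 9 bile acid and steroid genes, 3 were higher and 1 was lower at day 1, and 2 were higher and 2 lower at day 3. Sult1d1 and Sult1c2, cytosolic sulfotransferases, were the most abundant. Sult1d1 was 913 ± 147 CPM at day 0 and did not pass the test (adjusted p 0.0545 and 0.564), and Sult1c2 fell at day 3 with a log2 fold change of -1.31 (SE 0.391, adjusted p 0.0199). Slc10a2 (ASBT), the bile acid carrier of the brush border, fell at both days, with log2 fold changes of -2.18 (SE 0.504, adjusted p 0.00396) and -1.98 (SE 0.501, adjusted p 0.00865). Slc10a6, a carrier of sulfated steroids, rose at both days from 0.488 to 3.68 and 3.53 CPM.

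Of the 13 transcription regulators known to act on carrier genes, 1 was higher and 4 were lower at day 1, and 2 were higher and 2 lower at day 3. Hnf4a, a regulator of proximal tubule identity, fell at day 1 with a log2 fold change of -1.02 (SE 0.198, adjusted p 0.00133), from 926 ± 105 to 455 ± 77.6 CPM, and had an adjusted p of 0.0518 at day 3. Ppara, a fatty acid sensor, rose at day 3 by 1.19 (SE 0.371, adjusted p 0.0242). The estrogen receptor Esr1 fell at both days (-2.81 and -2.17).

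The last list held 9 tubule genes known, like Slco1a1, to be expressed more in male kidneys. At day 1, 2 of the 9 (Acsm3 and Cyp7b1) were lower, and at day 3, 8 were lower (not Odc1), with median log2 fold changes of -0.264 and -2.40. By number format, the median from day 0 to day 1 was 0.00724 in the 1-digit and -1.21 in the 3-digit libraries. At day 3 it was -2.51 and -2.47 in the same order. Between day 1 and day 3, 5 fell (Acsm3, Cyp4a12a, Cyp4b1, Gusb and Kap). Kap, a protein of the male proximal tubule, was 29700 ± 1990 CPM at day 0, 26000 ± 6690 at day 1 and 5640 ± 1970 at day 3, a log2 fold change of -2.40 (SE 0.291, adjusted p 8.67e-05) from day 0 to day 3. Cyp4b1, a monooxygenase, was 3710 ± 302, 3380 ± 1820 and 1070 ± 625 CPM, a change of -1.80 (SE 0.419, adjusted p 0.00557) by day 3. In the 3-digit against the 1-digit libraries of day 1, 6 of the 9 were lower and 1 was higher, and in those of day 3 there were 2 higher ones, where Slco1a1 differed by -1.15 and 2.34. Any link between these genes and Slco1a1 was not tested.

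**Figure D5:**
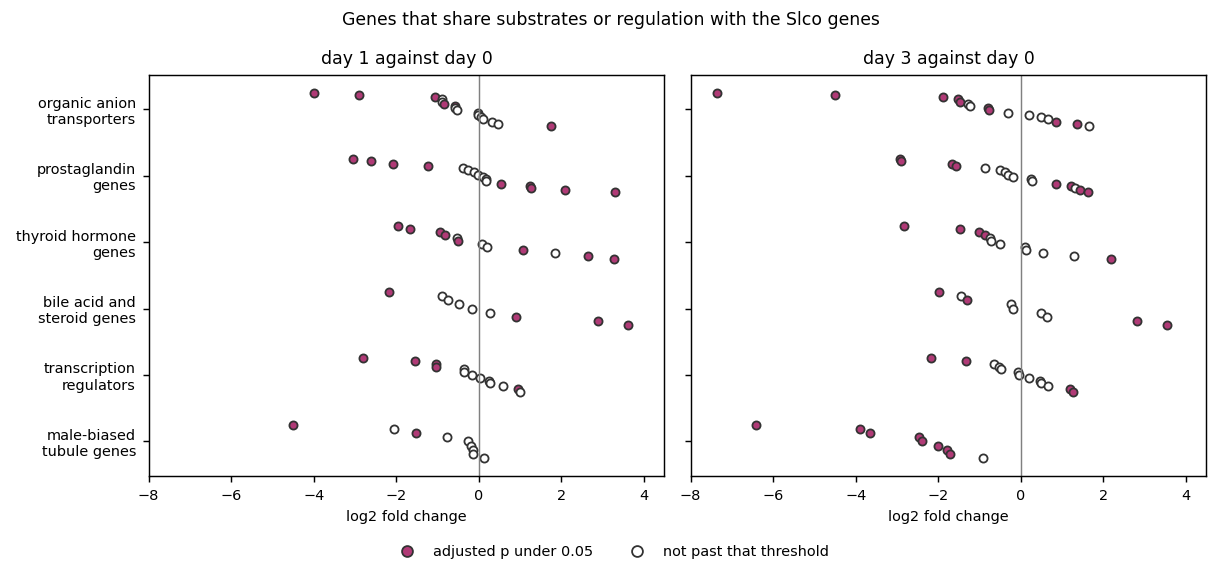
Log2 fold change at day 1 (left) and day 3 (right) against day 0 for the genes of the 6 lists, 1 point a gene, filled where the edgeR adjusted p is under 0.05. Points of the male-biased tubule genes move left from day 1 (2 of 9 filled) to day 3 (8 of 9 filled), with both number formats pooled.

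The genes whose levels followed a member most closely were found by Pearson's r of log2 CPM over the 14 libraries. It is given as a description, since the libraries share day, number format and depth, with r after removal of the mean of each day and format beside it. For Slco1a1 they were Thap1 (r = 0.966, 0.926 within), Ggt1 (0.955, 0.548), the brush border gamma-glutamyltransferase, and Pdia6 (0.954, 0.774). For Slco1a6 they were Cdhr5 (0.975, 0.913), a cadherin of the brush border, Mccc1 (0.972, 0.869) and Slc27a2 (0.962, 0.899), a fatty acid carrier and proximal tubule marker. For Slco3a1 they were Lactb (0.983, 0.874), Arhgap42 (0.970, 0.625) and Adi1 (0.969, 0.742). For Slco4c1 they were Car5a (0.971, 0.847), Osbpl8 (0.969, 0.749) and Mme (0.960, 0.666), the brush border peptidase neprilysin. With a prior count of 0.5 these were 0.939, 0.954 and 0.943, so their order changed. For Slco2a1 they were 2200002D01Rik (0.982, 0.729), AI413582 (0.959, 0.593) and Cd151 (0.956, 0.446). For Slco2b1 they were Rab5b (0.959, 0.412), Zfp617 (0.952, 0.325) and Rnf214 (0.952, 0.294), the lowest within-group values. For Slco4a1 they were Rhou (0.919, 0.928), Chn1 (0.916, 0.909) and Dsp (0.914, 0.905), with values within the groups close to those over all libraries. All these genes were picked by r over the same 14 libraries, so a high r within the groups is no separate check. Among the members other than Slco1a4, which was left out for its low level, r was highest between Slco3a1 and Slco4c1 (0.823, 0.182 within) and between Slco1a6 and Slco3a1 (0.815, 0.225). It was most negative between Slco2a1 and Slco3a1 (-0.792, -0.103). Within the groups it was strongest between Slco2b1 and Slco4a1 (-0.597, -0.792 within).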

How the data were processed

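Total RNA of mouse kidney was sequenced in 14 TruSeq libraries. According to the submitters' notes the authors trimmed reads with Trimmomatic and aligned them with STAR to mm10 (versions not given in the sources used here), and they deposited, per gene, the raw count of reads that map to 1 place, unnormalized, without strand and for each strand. The strand column that held 98.5% to 98.7% of strand-assigned reads was used. The 4 entries of STAR that name no gene (29.0% to 38.3% of reads) were left out of library sizes and tests. Unique mapping lowers counts of genes with near-identical copies.

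Samples were grouped by the day in their titles. Differences were tested by edgeR 4.0.16 in R 4.3.3 (filterByExpr by day, TMM, quasi-likelihood test, 1 term per day, all 14 libraries, Benjamini-Hochberg over 14300 genes, call at adjusted p under 0.05). A second fit had a term for each day and number format. Standard errors came from the F value. Log2 CPM used a prior count of 2. The calculation was tested on simulated data. The tests of days compare groups of 4 and 5 libraries, those of number formats compare 2 with 3, or 2 or 3 with 4, and intervals of read ratios (95%, exact) cover counting error only. The chi-square between replicate libraries, divided by its degrees of freedom, was 5.94 to 241, so none was counted as a repeat.

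The members and lists were chosen with earlier results of these data known. All 8 members were described, the 2 most abundant genes of each list were named (except 1 that is not reported here), and for each member with a mean of at least 1 CPM the 3 genes with the highest r were named. Gene models were GENCODE vM21, and lengths were the union of exons. Promoters were RefSeq GRCm38.p6, read with Python 3.11.15, and coding sequences were aligned with Biopython 1.88. Of the 88 genes listed beside the members 85 were in the files by symbol and 73 passed the filter. Alternatives were the unstranded column, RLE factors, total counts, no filter, a minimum of 10 counts per library, the Wald test of DESeq2 1.42.0, a fit of the 2 days alone, the replicate block, the number format, a log2 change of 1 or more in size, a prior count of 0.5, the longest transcript and leaving out each library.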

Additional observations from a re-analysis of the deposited data

Results flagged for a closer look

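In 24 groups of 4 or 5 libraries (8 members by 3 days), the distance of the most extreme library from its neighbour was compared with the range of the group by Dixon's test, and chance alone would pick out about 1.2 such groups. There were 4 such groups, from 3 libraries. Day 0 replicate 4 was high for Slco4a1 (64.58 CPM against 12.5 to 14.6 in the other 3) and for Slco1a6 (342.7 CPM against 279.6 to 282.0). Day 1 replicate 2 was high for Slco4c1, with 0.4996 CPM from 11 reads, and day 3 replicate 2 with 2.591 CPM from 46 reads. Day 3 replicate 2 also had the lowest tubular injury sum of its day (6380 CPM) and the highest proximal tubule sum (21700 CPM), whose part was not tested.

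For 3 members every 3-digit library lay on one side of every 1-digit library at day 1 and on the other side at day 3, and the difference between the days was not tested. The 3-digit minus 1-digit log2 difference was -1.148 at day 1 and 2.343 at day 3 for Slco1a1, 1.106 and -0.856 for Slco2a1, and 1.558 and -0.50 for Slco2b1.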

How the results depend on the processing

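The count of changed genes among the 73 tested in the lists was 34 at day 1 and 37 at day 3 against day 0, and 19 at day 3 against day 1. The counts against day 0 stayed within 1.5 times under all alternatives run. The count of day 3 against day 1 was 11 with only the 2 days in the fit, 36 with only 1-digit libraries and 12 where a log2 change of 1 or more in size was also required, and the causes of the first 2 were not tested. Leaving out each library in turn gave 30 to 36, 34 to 47 and 13 to 25. With the replicate number as a block the counts were 30, 38 and 17, and the calls of Slco1a6 (-0.57) and Slco4a1 (1.12) at day 1 and of Slco4c1 (2.13) between days 1 and 3 changed. Deviations of same-numbered libraries from the mean of their day correlated between -0.175 and 0.261 over 13 pairs. The means of days 1 and 3 pool both number formats, so this cannot decide whether the numbers pair the samples.

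Of the alternative values of the members' changes between days, 581 differed from the value given by less than 1 SD between replicates and 35 by more, mostly those by number format. Slco4a1 rested on day 0 replicate 4 and Slco4c1 on replicate 2 of days 1 and 3, as given above. Without day 0 replicate 4 and day 3 replicate 2 together, chosen after seeing the data, Slco4a1 was 1.96 at day 1 and 2.13 at day 3, and Slco4c1 was -5.97 at day 3. Depth limits Slco4c1 at day 1 (0 to 11 reads) and Slco1a4 at day 3 (0 to 12 reads), since a library with 0 reads allows up to 3.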
